A study of Homo sapiens with 6 samples.

Results

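Granulocyte and monocyte genes were followed in K562 cells, an erythroleukaemia line grown from a patient's chronic myeloid leukaemia at blast crisis, with the fusion kinase BCR-ABL1. The members are MS4A3, LYZ, SPI1, CD33, CSF2RA, CEBPA, CEBPD, CEBPE and MPO, chosen by name. All 9 are rows of the table of 35615 gene symbols, 8 of them have counts, and MPO has none. The compared cultures were 3 given the hsa-miR-92a-1-5p mimic (miR92a 1 to 3) and 3 given a negative-control mimic (scramble 1 to 3), labelled as biological replicates. In both groups 5 M cells were nucleofected with 500 pmol of mimic, 1 µM imatinib, an inhibitor of the ABL1 kinase, was added 4 h later, and total RNA was taken after a further 24 h. All cultures therefore held imatinib and a mimic, and K562 is a single line, so every value below describes that line under the drug. The library totals were 704448 counts in miR92a 1 and 24751862 to 25982085 in the other 5 libraries. The shallow library is one where 1 count stands for 1.36 CPM (counts per M counts of a library), while it stands for 0.0382 to 0.0416 CPM in the others. CPM values below are scaled by TMM, a correction for library size and composition.

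Granulocytes and monocytes arise from a shared progenitor in which the transcription factors PU.1 (encoded by SPI1) and C/EBPα (CEBPA) act together. C/EBPδ and C/EBPε are relatives of C/EBPα, and C/EBPε acts in the late steps of granule formation. PU.1 and the erythroid factor GATA1 oppose each other, and chronic myeloid leukaemia in its chronic phase makes large numbers of granulocytes. The receptor for GM-CSF (α chain CSF2RA) and the sialic acid-binding receptor CD33 lie on the surface of these cells. Their granules carry myeloperoxidase (MPO) and lysozyme (LYZ).

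The transfected strand is shown because the comparison turns on it, with the seed, bases 2 to 8, in capitals (RefSeq, GRCh38.p14, chromosome 13, 91351324 to 91351346, plus strand).
hsa-miR-92a-1-5p: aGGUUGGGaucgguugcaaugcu
The letters that pair with the seed are CCCAACC, and CCAACCA pairs with the seed less its last base and has an A after it. Neither stands in the longest annotated 3′ UTR of any of the 9 members (0 of 9, UTRs from 183 bases in CEBPE to 1404 in CEBPA, GENCODE 29), whereas 2173 of 12888 tested genes with a 3′ UTR (16.9%) hold at least 1. This says only that these letters are not in those windows.

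In the fit on group alone no member passed between mimic and control libraries (n = 3 each). Of the 8 tested members 0 were lower and 0 higher at an adjusted p under 0.05, by edgeR's quasi-likelihood F-test with the Benjamini-Hochberg correction. Over all 14543 genes tested the same fit called 0.976% lower and 0.433% higher. No member reached an unadjusted p under 0.05 in that fit, a level that 13.5% of all genes reached, and limma-voom and DESeq2 also called 0, DESeq2 without an adjusted p for CEBPA, CEBPD, CEBPE and CSF2RA and so on the other 4 members only. The mimic and control libraries overlapped for each of the 8 tested members, while 21.2% of all genes had no overlap. For CEBPA the overlap rests on 0 counts in the shallow library miR92a 1 and is not established. With the replicate number as a block, a fit that compares libraries of the same number, LYZ alone was lower (1 of 8, with 0 higher). That fit called 6.7% of all genes lower and 4.57% higher, so the count of 1 is close to the background and says little about the members as a group. The median log2 fold change of the 8 members was -0.09, beside -0.01 over all genes tested.

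**Figure D1:**
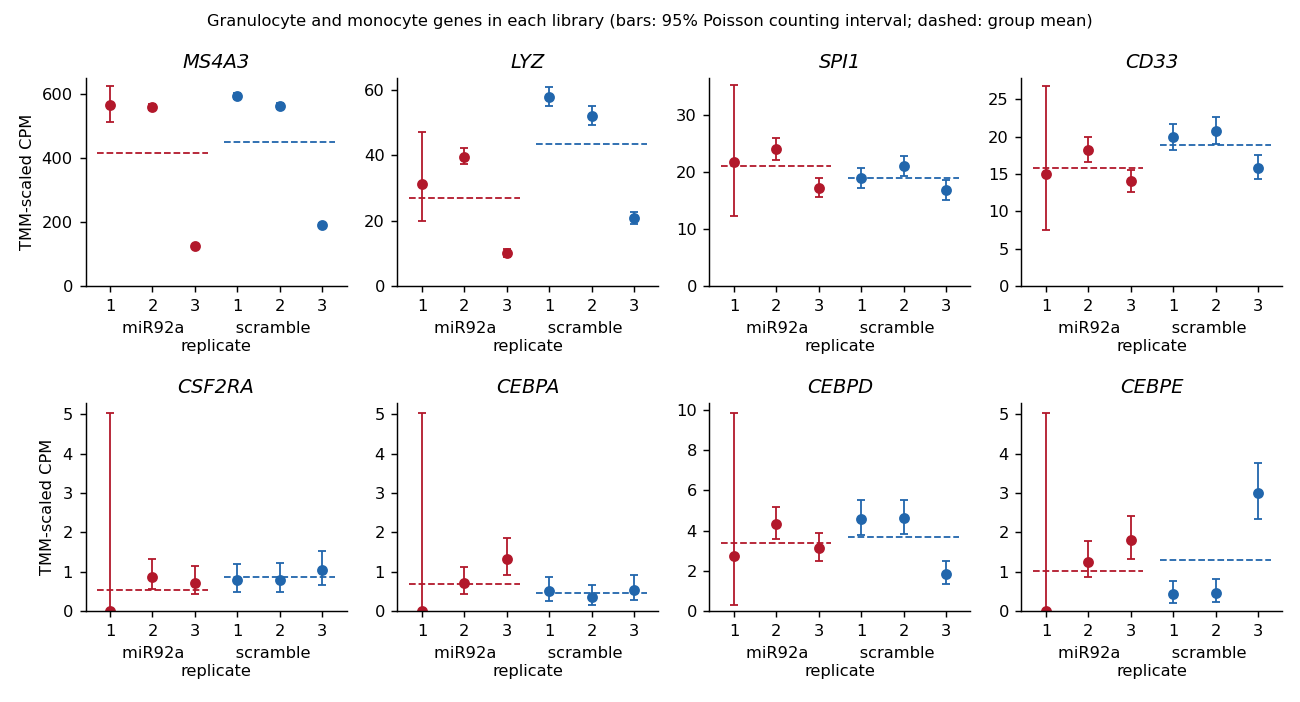
TMM-scaled CPM (vertical axes from 0, own scale per gene) of the 8 members with counts in each library, miR92a replicates in red and scramble replicates in blue, with the group mean dashed and bars for the 95% Poisson counting interval. MS4A3, LYZ, SPI1 and CD33 are lowest in replicate 3 of each group, and the bars of miR92a 1 are the widest.

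Per length of transcript, MS4A3 was the most abundant member in every library. Its level per kilobase of the principal transcript (1613 bases) lay between 77.2 and 351 CPM in mimic libraries and between 118 and 368 CPM in control libraries. LYZ followed, at 6.65 to 25.9 CPM per kilobase in mimic libraries and 13.6 to 37.8 in control libraries. SPI1 stood at 12.3 to 17.1 CPM per kilobase in mimic libraries and 12 to 15.0 in control libraries, and CD33 at 9.72 to 12.6 in mimic libraries and 10.9 to 14.3 in control libraries. The ranges of these 3 overlapped, so their order is not fixed beyond the spread, and in miR92a 3 LYZ stood below both SPI1 and CD33. CEBPD, CEBPE, CEBPA and CSF2RA each stayed at or below 2.12 CPM per kilobase in all libraries. The isoforms that K562 cells use were not measured, and the annotated coding transcripts of these genes differ in length, for MS4A3 from 507 to 1613 bases.

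MS4A3, a 4-pass membrane protein that marks granulocyte-monocyte progenitors and basophils, differed far more between replicates than between mimic and control. It had 566, 558 and 125 CPM in miR92a 1, 2 and 3 and 594, 564 and 190 CPM in scramble 1, 2 and 3. Replicate 3 was low in both groups, and replicates 1 and 2 lay close together across the groups. The means were 416 ± 252 CPM with the mimic and 449 ± 225 CPM in control libraries (SD, n = 3 each), and the log2 fold change of -0.15 ± 0.57 (SE, 95% interval -1.46 to 1.17) did not pass (adjusted p = 0.96 by edgeR). The coefficient of variation was 60.7% among mimic and 50.1% among control libraries, while counting alone gives 4.90% in miR92a 1 and at most 1.79% in the others. Within same-numbered libraries the log2 ratio of mimic to control was -0.07 for replicate 1, -0.015 for replicate 2 and -0.61 for replicate 3. With the block the difference was -0.24 ± 0.10 (adjusted p = 0.13 by edgeR), and with replicates 1 and 2 alone -0.05 ± 0.06.

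MS4A3 lies on the plus strand of chromosome 11 (60056587 to 60071128, GRCh38, ENSG00000149516.13), and its promoter is shown because this gene has the largest spread of the abundant members. The window runs from 250 bases before to 50 bases after the RefSeq start (GRCh38.p14, chr11:60056415-60056714), with matches to a C/EBP motif (TTGCNNAA) and a GATA motif (AGATAA), sought on both strands, in capitals.
MS4A3 promoter: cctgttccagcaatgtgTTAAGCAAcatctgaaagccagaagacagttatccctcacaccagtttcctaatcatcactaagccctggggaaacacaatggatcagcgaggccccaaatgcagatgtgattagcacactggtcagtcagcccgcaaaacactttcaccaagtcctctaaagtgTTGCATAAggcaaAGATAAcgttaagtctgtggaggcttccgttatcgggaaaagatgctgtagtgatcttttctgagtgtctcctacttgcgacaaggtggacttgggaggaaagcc
The C/EBP letters occur at 60056432 to 60056439 on the minus strand and at 60056597 to 60056604 on the plus strand, and the GATA letters at 60056610 to 60056615. At least 1 such C/EBP match is present in 10.5% of 35116 promoter windows of this length and at least 2 in 1.06%, and AGATAA is present in 10.3%. A PU.1 motif (GAGGAAG) was not found in this window, while it occurred in those of CEBPE, CD33 and CSF2RA and in 13.6% of all windows. Only 5 of the 9 members (MS4A3, CEBPE, CEBPA, CD33 and CSF2RA) matched the promoter table. GENCODE starts the gene upstream of the RefSeq start, so the second C/EBP match and the GATA match lie inside the GENCODE gene. A match is a run of letters and was not tested as a binding site.

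LYZ, the bacterial cell wall-cleaving enzyme of granulocyte and macrophage granules (chromosome 12, 69348341 to 69354234, GRCh38), was lower with the mimic in each same-numbered pair. It had 31.3, 39.6 and 10.2 CPM in miR92a 1, 2 and 3 and 57.9, 52.1 and 20.8 CPM in scramble 1, 2 and 3. The groups overlapped because scramble 3 was below miR92a 1 and miR92a 2. The log2 ratio of mimic to control was -0.89 in the replicate 1 pair, -0.39 in the replicate 2 pair and -1.03 in the replicate 3 pair, and 24.5% of all tested genes were lower in all 3 pairs. Without the block the difference was -0.76 ± 0.53 (SE, adjusted p = 0.62 by edgeR, n = 3 each), within the spread between replicates. With the replicate block LYZ fell, with a log2 fold change of -0.72 ± 0.14 (adjusted p = 0.0015 by edgeR).

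The blocked call on LYZ was kept when both libraries of replicate 1, 2 or 3 were left out, with log2 fold changes of -0.68, -0.99 and -0.47 and adjusted p of 0.015, 1.3e-04 and 9.1e-04 by edgeR. Such fits, here and for other genes below, hold few libraries and borrow much of their variance estimate from other genes. Their adjusted p therefore does not measure the spread of the gene between replicates. In replicates 1 and 2 alone, without a block, the log2 fold change of LYZ was -0.50 ± 0.09. The value in miR92a 1 rests on 23 counts, for which the 95% Poisson interval is 19.8 to 47.0 CPM, and this interval ends below the level of scramble 1 and scramble 2. No single library left out made the fit without the block call LYZ, and its log2 fold change then ranged from -1.65 without miR92a 2 to -0.22 without miR92a 3. GENCODE places an antisense gene, AC020656.1, over the end of LYZ, and the strand of the libraries is not given in the sources used here, so reads of the antisense gene cannot be told apart from those of LYZ. In bulk RNA fewer cells that express LYZ and less LYZ RNA per cell cannot be told apart either.

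**Figure D2:**
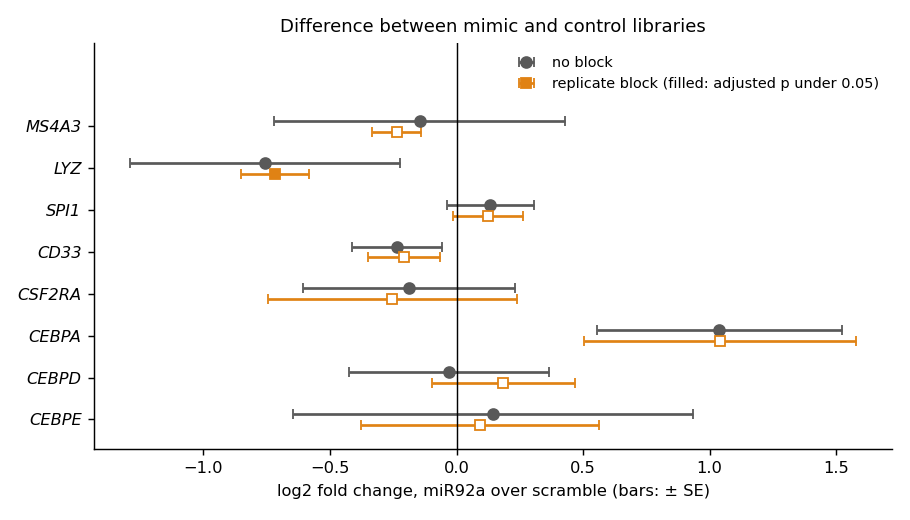
Log2 fold change of mimic over control libraries (horizontal axis) for the 8 tested members, without a block (grey circles) and with the replicate block (orange squares, filled where the adjusted p was under 0.05), with bars of 1 SE. LYZ has the only filled square, at -0.72.

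SPI1, which encodes PU.1, was the member with the steadiest level, together with CD33. SPI1 had 21.8, 24.0 and 17.3 CPM in miR92a 1, 2 and 3 and 19.0, 21.1 and 16.8 CPM in scramble 1, 2 and 3. The groups overlapped, and the coefficient of variation was 16.3% with the mimic and 11.1% in control libraries, against a counting error of 25.0% in miR92a 1 and 3.99% to 4.97% in the others. The log2 fold change was 0.13 ± 0.17 (SE, 95% interval -0.26 to 0.53, adjusted p = 0.82 by edgeR).

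CEBPA was at 0.725 and 1.32 CPM in miR92a 2 and 3 and at 0.510, 0.356 and 0.541 CPM in scramble 1, 2 and 3. These values are 19 and 33 counts with the mimic and 13, 9 and 13 counts in control libraries. The 2 deep mimic libraries were thus above all control libraries, but miR92a 1 had 0 counts, which allows up to 4.08 CPM (3 counts, a one-sided 95% limit; the 2-sided Poisson interval drawn in the plot of CPM by library reaches 5.02 CPM), so that library cannot be placed against the others. The log2 fold change of 1.04 ± 0.48 did not pass (95% interval -0.07 to 2.15, adjusted p = 0.41 by edgeR), nor did the blocked value of 1.04 ± 0.54 (adjusted p = 0.25). Intervals of fold changes come from the SE and the 8.46 degrees of freedom of the fit, and they cover 1 gene at a time. CEBPA has a single exon (chromosome 19, 33299934 to 33302564), and GENCODE places 2 antisense genes over it whose reads cannot be told apart from its own.

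CEBPE, the C/EBP of late granulocyte maturation, went opposite ways in the pairs. It had 33 and 45 counts (1.26 and 1.80 CPM) in miR92a 2 and 3 and 11, 12 and 72 counts (0.432, 0.474 and 2.99 CPM) in scramble 1, 2 and 3, with 0 counts in miR92a 1. The log2 ratio of mimic to control was 1.41 in the replicate 2 pair and -0.73 in the replicate 3 pair. The fitted difference was 0.14 ± 0.79 (adjusted p = 0.97 by edgeR). Scramble 3 was 6.61-fold above the mean of scramble 1 and 2, whereas miR92a 3 was 1.43-fold above miR92a 2.

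CEBPD, which is induced by cytokines and in inflammation, had 2, 113 and 78 counts in miR92a 1, 2 and 3 and 117, 117 and 45 counts in scramble 1, 2 and 3. On the CPM scale the mimic libraries held 2.72, 4.31 and 3.13 and the control libraries 4.59, 4.62 and 1.87. Its pair differences were -0.75, -0.10 and 0.74 on the log2 scale, so the pairs did not share a direction, and the first of them rests on 2 counts. The fitted value was -0.03 ± 0.40 without the block and 0.18 ± 0.28 with it (adjusted p = 0.99 and 0.76 by edgeR).

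Of the 10 listed C/EBP family members and partners, which include the 3 above, none passed without the block by edgeR, DESeq2 or limma-voom, and 1 had an unadjusted p under 0.05 in edgeR. The list's median log2 fold change was 0.08. With the block TRIB2, a pseudokinase that promotes degradation of C/EBPα protein, fell by 0.37 on the log2 scale, a call lost without both libraries of replicate 1 or of replicate 2. This was the only blocked call of the 10, in a fit that called 6.7% of all genes lower. TRIB2 had 167, 191 and 224 CPM in miR92a 1, 2 and 3 and 239, 241 and 280 CPM in scramble 1, 2 and 3, below its control in each pair.

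CD33 and CSF2RA, the receptors among the members, stayed within their spread. CD33 had 15.0, 18.2 and 14.0 CPM in miR92a 1, 2 and 3 and 19.9, 20.7 and 15.8 CPM in scramble 1, 2 and 3. Each mimic library was below its same-numbered control, by 0.41, 0.18 and 0.17 on the log2 scale, but the groups overlapped because scramble 3 was below miR92a 2. The log2 fold change was -0.23 ± 0.18 (SE, 95% interval -0.64 to 0.17, adjusted p = 0.65 by edgeR), and -0.21 ± 0.14 with the block (adjusted p = 0.42).

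CSF2RA had 0, 23 and 18 counts in miR92a 1, 2 and 3 and 20, 20 and 25 counts in scramble 1, 2 and 3, that is 0.878 and 0.722 CPM in the deep mimic libraries and 0.785 to 1.04 CPM in control libraries. The 2 deep mimic libraries lay on either side of the control values of scramble 1 and 2. The difference of -0.19 ± 0.42 did not pass (adjusted p = 0.91 by edgeR). CSF2RA lies in the pseudoautosomal region, annotated on both sex chromosomes, and how the authors' counting treated the copies is not given in the sources used here.

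MPO, the peroxidase of primary granules and the classical marker of myeloblasts, had 0 counts in all 6 libraries. This allows up to 0.115 to 0.125 CPM in the 5 deep libraries and up to 4.08 CPM in miR92a 1, by the same one-sided limit of 3 counts, counting error only. No difference between the groups could be seen at this depth.

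The 4 members with a mean of at least 10 CPM were all lowest in replicate 3 of each group, by different amounts. MS4A3 was 4.51-fold lower in miR92a 3 than in the mean of miR92a 1 and 2, and 3.04-fold lower in scramble 3 than in the mean of scramble 1 and 2. LYZ was 3.48-fold lower in miR92a 3 and 2.64-fold lower in scramble 3, measured the same way. SPI1 and CD33 were lower by 1.32-fold and 1.18-fold in miR92a 3 and by 1.19-fold and 1.29-fold in scramble 3. Of 9384 genes with a mean of at least 10 CPM, 52 (0.554%) were at least 2-fold below replicates 1 and 2 in replicate 3 of both groups on the log2 CPM scale, and 40 (0.426%) were at least 2-fold above them; of the 4 members 2 were in the first set and 0 in the second. Only 4 genes were lower by more than MS4A3 in both groups. Replicate 3 is 1 library per group and was singled out after its values were seen, so these folds are given without a test.

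**Figure D3:**
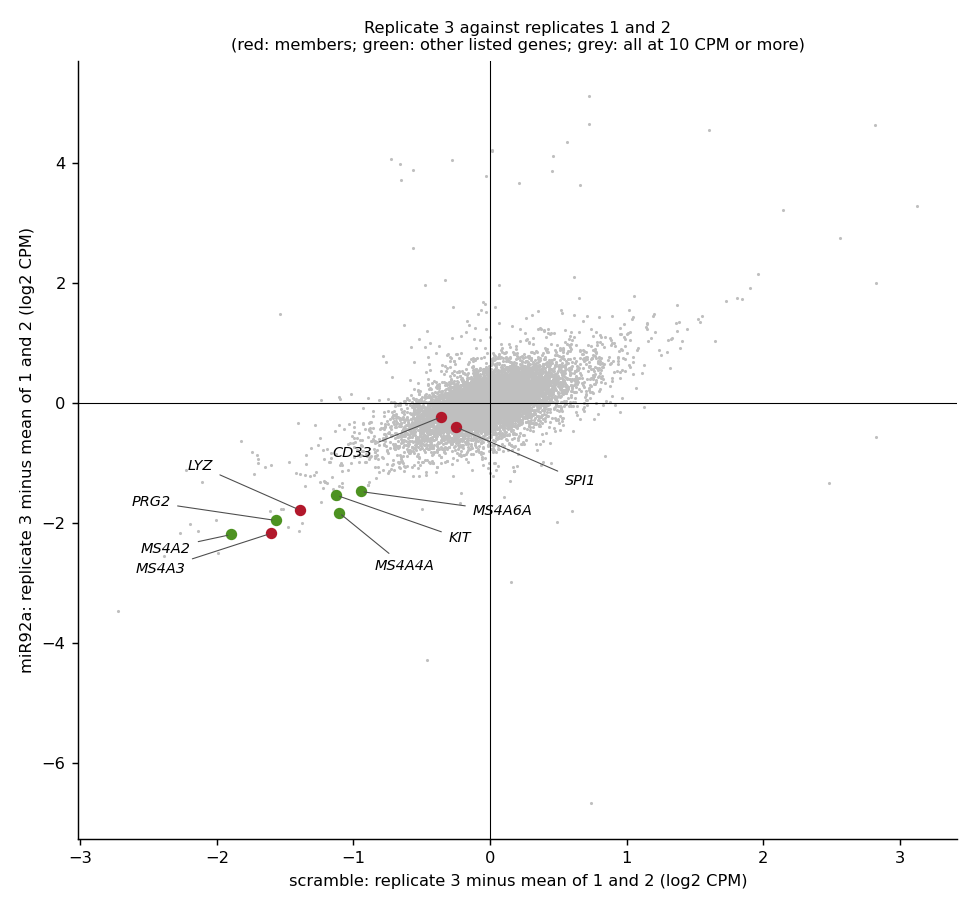
Difference in log2 CPM between replicate 3 and the mean of replicates 1 and 2 in control libraries (horizontal axis) and mimic libraries (vertical axis) for 9384 genes averaging 10 CPM or more. The members MS4A3 and LYZ (red) lie at the low end in both groups beside PRG2, KIT and 3 other MS4A genes (green), whereas the members SPI1 and CD33 lie within the main cloud.

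Neighbours of MS4A3 shared its low level in replicate 3. MS4A2, the β chain of the high-affinity IgE receptor of basophils and mast cells (chromosome 11, 60088261 to 60098466), had 20.4, 24.7 and 4.85 CPM in miR92a 1, 2 and 3 and 13.3, 14.1 and 3.62 CPM in scramble 1, 2 and 3. MS4A4A had 40.8, 47.3 and 12.3 CPM with the mimic and 35.5, 33.2 and 15.9 CPM in control libraries, and MS4A6A had 59.9, 51.4 and 19.9 CPM with the mimic and 48.4, 42.6 and 23.5 CPM in control libraries. These 4 genes lie between 60056587 and 60317944 of chromosome 11. The fifth tested gene of the family, MS4A15 (60756953 to 60776732), was not low in replicate 3: its difference from replicates 1 and 2 was 0.34 in mimic and 0.59 in control libraries on the log2 CPM scale. MS4A4A was chosen after its values were seen.

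Between mimic and control MS4A2 passed with the block but not without it, and its groups overlapped. With the block MS4A2 rose by 0.64 on the log2 scale (adjusted p = 0.014 by edgeR), while MS4A3 beside it had -0.24 and did not pass. That fit called 4.57% of all genes higher. The call on MS4A2 was lost without both libraries of replicate 2 (adjusted p = 0.50), and without the block its adjusted p was 0.78. Of the 5 tested genes of the MS4A family list none passed without the block by edgeR, DESeq2 or limma-voom, and none had an unadjusted p under 0.05. The same was so for the 9 tested basophil, eosinophil and mast cell markers, which share MS4A3 and MS4A2 with it. GATA2, a factor of progenitors and mast cells in that list, had 84.4, 107 and 93.1 CPM with the mimic and 92.8, 93.6 and 64.8 CPM in control libraries.

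Of the 5 genes whose level across the 6 libraries was most like that of MS4A3 (Pearson's r of log2 CPM over 9383 other genes with a mean of at least 10 CPM), all were low in replicate 3 of both groups. They were LRRCC1, CRLS1, the integrin α4 gene ITGA4, the scavenger receptor gene CD36 and NUCB2. ITGA4 had 65.3, 63.1 and 16.0 CPM in miR92a 1, 2 and 3 and 71.9, 68.8 and 27.0 CPM in scramble 1, 2 and 3. Since the libraries form 2 clusters on this measure, no pooled coefficient is given, and the likeness describes little beyond replicate 3.

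Other lineage genes moved with replicate 3 too. PRG2, a basic protein of eosinophil granules chosen after its values were seen, had 34.0, 40.1 and 9.46 CPM in miR92a 1, 2 and 3 and 32.5, 24.5 and 9.44 CPM in scramble 1, 2 and 3. KIT, the stem cell factor receptor, had 117, 116 and 40.0 CPM with the mimic and 89.2, 88.6 and 40.7 CPM in control libraries. The 16 erythroid markers summed to 10628, 11157 and 20844 CPM in miR92a 1, 2 and 3 and to 13691, 14015 and 22283 CPM in scramble 1, 2 and 3, high where MS4A3 and LYZ were low. None of the 16 passed without the block by edgeR (3 at an unadjusted p under 0.05, and 1 call by DESeq2). With the block 9 fell, in a fit that called 6.7% of all genes lower. The 13 megakaryocyte markers, none called without the block by edgeR, DESeq2 or limma-voom (1 at an unadjusted p under 0.05), summed to 534 to 688 CPM with the mimic and 590 to 694 CPM in control libraries. Most of that sum was GP1BB and NFE2. Among the others ITGA2B, THBS1 and GP6, chosen after their values were seen, were low in replicate 3 of both groups. ITGB3 was highest there, with 1.361, 2.214 and 2.565 CPM in miR92a 1, 2 and 3 and 1.922, 2.015 and 4.075 CPM in scramble 1, 2 and 3. GP1BA was not low there either, with 5.44, 3.51 and 5.09 CPM with the mimic and 3.22, 3.24 and 4.24 CPM in control libraries. ITGA2B, the integrin αIIb of platelets, had 55.8, 61.9 and 14.5 CPM in miR92a 1, 2 and 3 and 58.4, 61.1 and 12.9 CPM in scramble 1, 2 and 3, and THBS1 had 17.7, 19.1 and 7.34 CPM with the mimic and 24.4, 25.6 and 5.74 CPM in control libraries. With the block NFE2, a factor of megakaryocytes and erythroid cells, fell by 0.39 on the log2 scale (adjusted p = 0.0023 by edgeR), a call kept without both libraries of any 1 replicate. The 18 lymphoid markers, of which 4 had a mean of at least 1 CPM, summed to 144 to 318 CPM with the mimic and 188 to 261 CPM in control libraries, most of it from PTPRC, which other blood cells also express. The part of these differences in the values of MS4A3 and LYZ was not tested.

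Among the 25 granule protein genes 7 had no counts in any library, MPO and the protease CTSG among them, and 7 were tested. None passed without the block by edgeR, DESeq2 or limma-voom, and none had an unadjusted p under 0.05. With the block 3 of the 7 fell and none rose, beside 6.7% of all genes lower and 4.57% higher in that fit. These were LYZ, the proteoglycan core SRGN (-0.37, adjusted p = 0.045) and the bactericidal protein AZU1 (-1.04, adjusted p = 0.032, edgeR). SRGN had 47.6, 37.0 and 22.5 CPM in miR92a 1, 2 and 3 and 49.7, 48.9 and 31.4 CPM in scramble 1, 2 and 3. AZU1 had 0, 59 and 54 counts with the mimic and 43, 102 and 116 counts in control libraries. Both calls were lost without both libraries of replicate 2 or of replicate 3. The list's median log2 fold change without the block was -0.18, beside -0.01 over all genes. CTSC, the protease that activates granule proteases, did not pass and had 122, 122 and 104 CPM with the mimic and 148, 139 and 104 CPM in control libraries.

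Of the 25 monocyte and macrophage markers 10 were tested and none passed, with or without the block or by DESeq2 or limma-voom, with 2 at an unadjusted p under 0.05 without the block. The receptors CD14 and CSF1R, which define monocytes, had at most 10 and 4 counts in any library. The 10 had a median log2 fold change of -0.27, and 9 of them were on the negative side, beside 7524 of all 14543 genes. Only 5 of the 25 listed genes had a mean of at least 1 CPM, so several of the 10 lie near the floor. ITGAM, ITGAX, CD163 and LILRB4 had 0 counts in miR92a 1 and at most 35 in any other library. CD68, a lysosomal protein of macrophages, had 9.52, 12.5 and 13.7 CPM in miR92a 1, 2 and 3 and 16.0, 17.7 and 16.9 CPM in scramble 1, 2 and 3. The groups of CD68 did not overlap, but the difference of -0.41 ± 0.15 did not pass (adjusted p = 0.30, and 0.076 with the block, edgeR). CD36 had 12.24, 11.99 and 5.45 CPM with the mimic and 12.5, 11.4 and 7.11 CPM in control libraries.

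Among signalling genes of the myeloid receptors 1 kinase differed without the block. JAK1, a kinase bound to interferon and interleukin-6 family receptors, had 58.5, 69.5 and 57.3 CPM in miR92a 1, 2 and 3 and 123, 123 and 104 CPM in scramble 1, 2 and 3. No mimic library reached a control library, and JAK1 fell by 0.90 ± 0.12 on the log2 scale (adjusted p = 0.0097 by edgeR), the only one of 21 tested genes of the receptor and signalling list to pass without the block. The call was lost without miR92a 1, scramble 1 or scramble 2 (adjusted p up to 0.067). With the block JAK1 kept its call without both libraries of any 1 replicate. With the block SOCS3, an inhibitor of JAK signalling, also fell, and IFNGR2, a chain of the interferon-γ receptor, rose by 0.51 on the log2 scale. Without replicate 2 both were lost, and SOCS3 without replicate 3 as well. With the block 2 of the 21 were lower and 1 higher, beside 6.7% of all genes lower and 4.57% higher. The list's median log2 fold change was -0.19. CSF2RB, the shared β chain that pairs with CSF2RA and was chosen after its values were seen, had 0, 116 and 54 counts with the mimic and 103, 125 and 79 counts in control libraries.

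The NADPH oxidase of phagocytes uses the GTPase RAC2 in neutrophils and RAC1 in other cells, and these 2 moved apart. RAC2 had 44.9, 53.7 and 44.3 CPM in miR92a 1, 2 and 3 and 83.6, 88.6 and 87.4 CPM in scramble 1, 2 and 3, and it fell by 0.84 ± 0.11 on the log2 scale (adjusted p = 0.0094 by edgeR). RAC1 had 348, 352 and 361 CPM with the mimic and 259, 256 and 229 CPM in control libraries, and it rose by 0.51 ± 0.08 (adjusted p = 0.028). In neither gene did the groups overlap. CYBA and CYBB, the membrane subunits of the oxidase, did not pass in either fit. RAC2 missed the threshold without miR92a 1 or scramble 2 (adjusted p up to 0.057), and RAC1 did so without each single library other than scramble 3 (adjusted p up to 0.14); with the block both passed without both libraries of any 1 replicate.

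Of 12 tested myeloid surface markers, which include CD33, none passed without the block by edgeR or limma-voom, and 1 had an unadjusted p under 0.05 in edgeR. With the block, and by DESeq2 without it, CD24, a glycosylphosphatidylinositol-anchored protein of granulocytes and B cells, fell, by 0.92 on the log2 scale with the block. CD24 had 31.3, 39.4 and 19.0 CPM in miR92a 1, 2 and 3 and 67.9, 68.0 and 38.1 CPM in scramble 1, 2 and 3, below its control in each pair. The blocked call on CD24 was kept without both libraries of any 1 replicate (adjusted p up to 6.9e-04 by edgeR). It was the only blocked call of the 12, in a fit that called 6.7% of all genes lower. CD24 has near-identical copies elsewhere in the genome, and how reads were split among them is not given in the sources used here.

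Of 24 tested myeloid transcription factors, which include SPI1 and the C/EBP members, none passed without the block by edgeR, DESeq2 or limma-voom, while 2 were lower and 1 higher at an unadjusted p under 0.05. With the block 2 fell, the retinoic acid receptor gene RARA and the HLH inhibitor ID2, and 2 rose, the retinoid X receptor gene RXRA and the AP-1 gene JUN. The blocked fit called 6.7% of all genes lower and 4.57% higher, so these counts say little about the list. RXRA had 96.6, 83.1 and 105 CPM in miR92a 1, 2 and 3 and 67.4, 70.1 and 77.0 CPM in scramble 1, 2 and 3. RARA had 9.52, 17.8 and 15.3 CPM with the mimic and 25.4, 25.2 and 18.5 CPM in control libraries. Each of these 4 calls was lost without at least 1 pair of same-numbered libraries: RARA without replicate 1 or 2, RXRA without replicate 1, and ID2 and JUN without replicate 3. MYB, the highest of the list by mean CPM, had 279, 269 and 177 CPM with the mimic and 299, 298 and 195 CPM in control libraries and did not pass. ZEB2, next by the mean over all 6 libraries, had 186, 164 and 151 CPM with the mimic and 161, 155 and 148 CPM in control libraries and did not pass either.

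**Figure D4:**
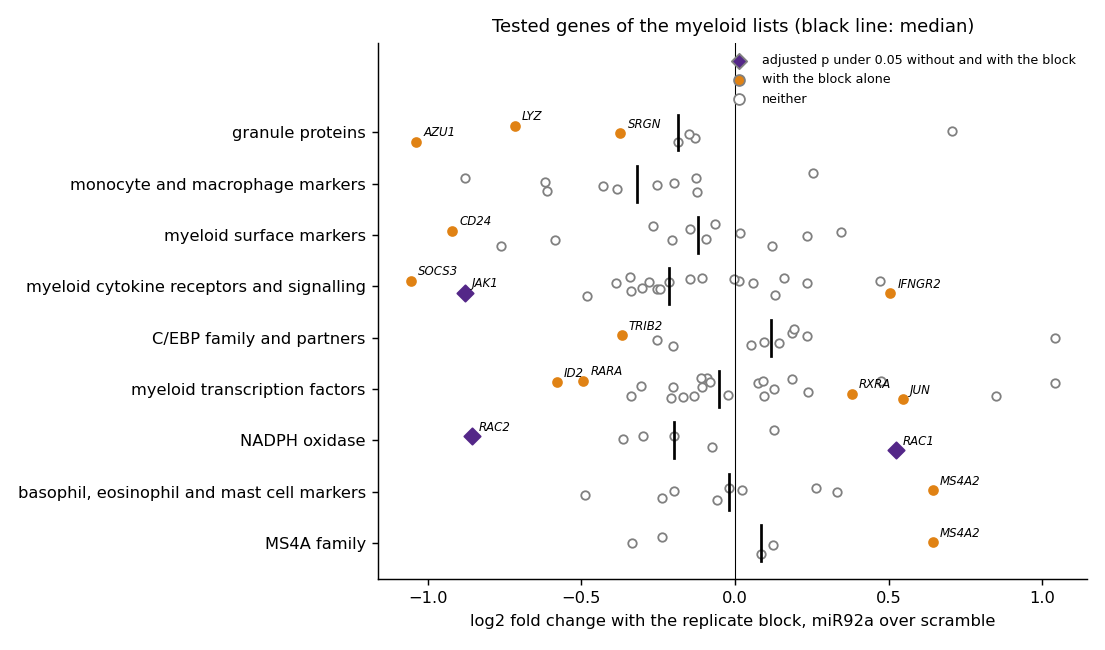
Log2 fold change with the replicate block, mimic over control (horizontal axis), of each tested gene in 9 lists, with the list median as a black line. Purple diamonds (JAK1, RAC2, RAC1) passed in both fits, orange points with the block alone, and open points in neither; LYZ lies with AZU1 and SRGN among the granule proteins.

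The labels call the cells myeloblasts, and the markers were read against that. Of the 25 granule protein genes 5 had a mean of at least 1 CPM, as did 5 of the 25 monocyte and macrophage markers and 7 of the 18 basophil, eosinophil and mast cell markers, whereas all 16 erythroid markers did. MPO, CTSG and the mast cell genes CPA3 and TPSAB1 had no counts, and the elastase gene ELANE had 1 count in all libraries together. Granule proteins summed to 208 to 276 CPM in mimic libraries and 245 to 333 CPM in control libraries, against 10628 CPM or more for the erythroid markers in every library. Most of the granule protein sum came from CTSC, SERPINB1, SRGN and LYZ. AZU1 and PRTN3 were highest in scramble 3, at 4.823 and 1.455 CPM.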

How the data were processed

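The authors sequenced total RNA as read pairs and quantified it with kallisto, per the labels' protocols; GRCh38 is the build in the submitters' processing notes. The deposited table holds expected counts, which the authors estimated with kallisto per gene symbol and gave as whole numbers without scaling to a common total; the kallisto version, annotation, strand and step from transcripts to genes are not given in the sources used here. Groups and replicate numbers came from the labels. In R 4.3.3 with edgeR 4.0.16, 14543 genes passed filterByExpr, were scaled by TMM and tested by quasi-likelihood on group alone, with Benjamini-Hochberg adjustment over all of them and a threshold of 0.05. SE is the log2 fold change over the square root of F. Log2 CPM used a prior count of 2.

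As a check of pairing, the departures of replicates 1, 2 and 3 from their group means were correlated across groups over all tested genes. The values were 0.15, 0.16 and 0.42, each above 0.1, so the fit with a replicate block is given where it changes a call. Departures from a group mean cancel out, so a shift shared by the replicate 3 libraries alone would also correlate replicates 1 and 2. In abundant genes the matched pairs of replicates 1 and 2 had 0.37 and 0.475. The swapped pairs had 0.517 (miR92a 2 with scramble 1) and 0.249 (miR92a 1 with scramble 2). The check therefore cannot show that replicates 1 and 2 are matched by number, and the labels do not say what a number shares. Alternatives were DESeq2 1.42.0, limma-voom (limma 3.58.1), other scalings and filters, the block, and libraries left out. Named genes were the members, then from each list the called genes (at most 4, by size) or, with no call, the most abundant (at most 2); others, including those called with the block alone, were chosen after their values were seen. Members and lists were chosen with earlier results of these data known. Code was tested on simulated data. UTR searches used GENCODE 29 (13669 of 14543 tested symbols matched), Python 3.11.15 and pandas 2.3.3; figures used matplotlib 3.10.9.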

Additional observations from a re-analysis of the deposited data

How the results depend on the processing

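Of 142 values of the 8 tested members under the alternatives, 117 kept their direction and their side of the threshold, 6 became calls (all LYZ) and 19 changed direction, none of them a call. The direction changed for CEBPD with limma-voom (0.088), the replicate block (0.185), the block without both libraries of replicate 1 (0.286) or replicate 2 (0.379), and replicate 3 as a batch term (0.176); for CEBPE with DESeq2 (-0.014) and the block without replicate 2 (-0.785); and for CSF2RA in replicates 1 and 2 alone (0.075). With single libraries left out the log2 fold change ranged from -0.338 to 0.156 for CEBPD, -0.283 to 1.657 for CEBPE, -0.523 to 0.321 for MS4A3 and -0.050 to 0.307 for SPI1. The cause was not tested.

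Members lower numbered 1 with the replicate block, with the block without both libraries of replicate 1, 2 or 3, with replicate 3 as a batch term, and in replicates 1 and 2 alone, and 0 under the other alternatives; members higher numbered 0 throughout. Over all genes the lower and higher calls, 142 and 63 as reported, were 975 and 664 with the block, 751 and 486 with the block without replicate 1, 549 and 285 without replicate 2, 866 and 554 without replicate 3, 1262 and 976 with replicate 3 as a batch term, 1296 and 938 in replicates 1 and 2 alone, and 247 and 141 with DESeq2. With single libraries left out they ranged from 56 to 148 and from 14 to 53. The batch term, replicates 1 and 2 alone and the block without replicate 2 or 3 were chosen after seeing the data. The depth of miR92a 1 limits CEBPA, CEBPD, CEBPE and CSF2RA, which have 0 to 2 counts there.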
